A study of Homo sapiens with 12 samples.

Results

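The BCL2 family decides whether a T cell leukaemia cell keeps its mitochondria intact or commits to apoptosis, and 10 of its genes are described here across 2 human T cell acute lymphoblastic leukaemia (T-ALL) lines. The members were chosen by name as genes of the pathway and not by any measured value, although earlier results of these data were known. They are 10 of the 58288 genes in the deposited tables. They comprise the anti-apoptotic genes BCL2, BCL2L1 (which encodes BCL-XL), MCL1 and BCL2A1, the BH3-only genes BCL2L11 (BIM), BMF, PMAIP1 (NOXA), BID and BAD, and the effector BAK1. The data are 12 RNA-seq libraries of ribosomal RNA-depleted RNA, 6 from each of the established lines HPB-ALL and KOPTK1. In each line 3 libraries came from cells carrying a control shRNA against GFP and 3 from cells carrying an shRNA against SHQ1, an assembly factor for the H/ACA ribonucleoproteins that modify ribosomal and spliceosomal RNA. All of the cells, controls included, had received an shRNA vector and 2 µg/ml puromycin for 48 h.

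The per-library columns of the tables are headed by the numbers 1 to 12, which no sample label repeats. Libraries 1 to 6 could therefore be placed in KOPTK1 and libraries 7 to 12 in HPB-ALL, but not in the control or the SHQ1 shRNA group, and the effect of the SHQ1 shRNA on the family was not analysed here. The comparison the columns allow is between the 2 lines, and each line's 6 libraries hold both shRNA treatments. Line, table and any handling by line cannot be told apart, and the labels do not say whether libraries of a group came from separate cultures, so p-values measure the spread between these libraries.

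Anti-apoptotic members hold the mitochondrial effectors in check by gripping a short helix, the BH3 motif, in a groove on their surface. BH3-only members carry that helix, most of them with little else of the family fold, and they occupy the groove or act on the effectors directly. Effectors such as BAK1 and BAX then form pores in the outer mitochondrial membrane, cytochrome c escapes, and caspases are activated. T-ALL cells are known to rely on different anti-apoptotic members according to their stage of maturation. NOXA is known for binding MCL1, and BAD for binding BCL2 and BCL-XL.

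The coding bases of the BH3 core are shown because they are the feature on which binding between these members turns. They were read from the GENCODE transcript chosen as representative for each gene, on build GRCh37, and are written 5′ to 3′ on the coding strand. Capitals mark the codon of the conserved leucine and the codons of the small residue and aspartate that follow it, found by a search for leucine, any 3 residues, then glycine, alanine or serine, then aspartate.
BCL2, chr18:60985585-60985620, minus strand, exon 2: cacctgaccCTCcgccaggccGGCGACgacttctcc
BCL2L1, chr20:30309728-30309763, minus strand, exon 2: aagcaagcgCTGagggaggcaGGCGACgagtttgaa
MCL1, chr1:150551344-150551379, minus strand, exon 1: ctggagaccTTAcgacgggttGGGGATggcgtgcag
BCL2L11, chr2:111907671-111907706, plus strand, exon 3: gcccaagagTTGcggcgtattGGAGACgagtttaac
BMF, chr15:40396399-40396434, minus strand, exon 4: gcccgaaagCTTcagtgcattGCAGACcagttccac
PMAIP1, chr18:57569896-57569931, plus strand, exon 2: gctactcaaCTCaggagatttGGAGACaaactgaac
BID, chr22:18222184-18222219, minus strand, exon 4: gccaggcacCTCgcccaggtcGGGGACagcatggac
BAD, chr11:64039097-64039132, minus strand, exon 3: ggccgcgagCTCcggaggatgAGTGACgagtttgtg
BAK1, chr6:33543167-33543202, minus strand, exon 4: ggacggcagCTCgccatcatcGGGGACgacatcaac

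In all but BMF and BAD the small residue is glycine. BMF has alanine and BAD has serine at that place. BID held a second match at residue 25, and BCL2A1 held none, which says only that this pattern of residues does not occur in its 175-residue product. The leucine stands at residue 29 of the 54-residue NOXA product and at residue 213 of the 350-residue MCL1 product. A second pattern, asparagine, tryptophan, glycine and arginine in a row, which belongs to the BH1 region of the groove, occurred in BCL2, BCL2L1, MCL1, BCL2A1 and BAK1 and in none of the 5 BH3-only members.

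Library totals ran from 22884785 to 36098045 counted reads in KOPTK1 and from 36792076 to 42842791 in HPB-ALL. The lines were checked against marker genes, as levels in RPKM (reads per kilobase of exon per 1000000 reads). T lineage markers such as CD3D were abundant in every library, the 13 genes of the list summing to between 1016 and 1108 RPKM, although CD4 was below 1 RPKM in every KOPTK1 library and both CD4 and CD8A had medians below 1 RPKM in HPB-ALL (0.914 and 0.989 RPKM). Of the B lineage markers CD79A was the most abundant, at 39.9 to 46.3 RPKM in the libraries labelled HPB-ALL, and the 4 myeloid markers summed to at most 1.63 RPKM in any library. TLX3, the homeobox gene that HPB-ALL is known to express from a translocation, lay at or below 0.0362 RPKM in all 6 libraries labelled HPB-ALL, which goes against that label. The highest TLX3 level, 0.298 RPKM, was in KOPTK1 library 3. LMO2, the translocated gene of KOPTK1, was at 0.978 to 2.504 RPKM in the KOPTK1 libraries and 0.0779 to 0.261 RPKM in the others. It had at most 138 reads in any library, and at this level it gives the KOPTK1 label at most weak support. SHQ1 itself was at 39.4 to 46.6 RPKM in KOPTK1 and 45.9 to 71.9 RPKM in HPB-ALL.

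KOPTK1 libraries 1, 2 and 3 stood apart from KOPTK1 libraries 4, 5 and 6. TAL1, a T-ALL transcription factor, was at 12.5 to 12.7 RPKM in libraries 4 to 6, at 23.9 to 26.7 RPKM in libraries 1 to 3 and at 39.1 to 45.2 RPKM in HPB-ALL. CD79A followed the same order, with 5.89 to 7.15 RPKM in libraries 4 to 6 and 24.1 to 24.8 RPKM in libraries 1 to 3. The 1120 genes at least 2-fold higher in HPB-ALL had a median log2 level relative to HPB-ALL between -0.82 and -0.79 in libraries 1 to 3. In libraries 4 to 6 it was between -2.21 and -2.19. For the 2036 genes at least 2-fold higher in KOPTK1 it was between 1.37 and 1.39 in libraries 1 to 3. In libraries 4 to 6 it was between 1.88 and 1.91. Both gene sets were picked by the fit on these same 12 libraries, so their direction against HPB-ALL was set by the choice. What separates these libraries was not tested, and log2 differences of single genes are given with all 12 libraries and without either set of 3. BCL2A1 was below the filter in all of these fits.

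**Figure D1:**
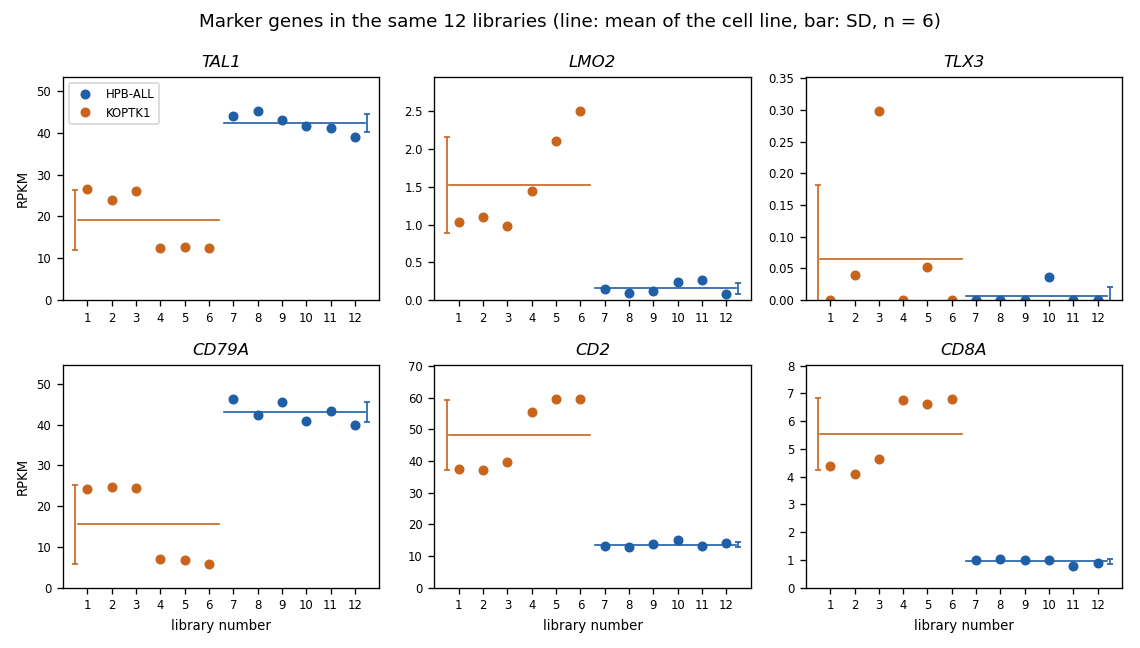
Level in RPKM (vertical axis) of 6 marker genes in each library (horizontal axis, library number), KOPTK1 in orange and HPB-ALL in blue, with lines at each line's mean and bars of 1 SD (n = 6). TAL1 and CD79A in KOPTK1 libraries 1 to 3 lie between KOPTK1 libraries 4 to 6 and HPB-ALL, and TLX3 is near 0 in HPB-ALL.

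Of the 10 members, 9 passed the filter of a mean of at least 1 RPKM in a line and were tested, and 6 of the 9 differed between the lines. MCL1, BID, BCL2L11 and BCL2 were higher in HPB-ALL, and PMAIP1 and BMF were higher in KOPTK1. BCL2L1, BAD and BAK1 did not pass the test, and BCL2A1 was too low to be tested. The call was an adjusted p under 0.05 in edgeR's quasi-likelihood test, with Benjamini-Hochberg adjustment over all 24246 genes tested, of which 65.4% were called by the same rule. By direction, 31.3% of all tested genes were called higher in HPB-ALL and 34.1% higher in KOPTK1, beside 4 and 2 of the 9 members. The members' share of 6 in 9 was therefore close to that of all genes at this filter. At a mean of at least 10 RPKM it was 4 in 7, beside 7196 of 9293 genes. No member differed by 2-fold or more, where 13.0% of all tested genes were called with at least that difference (4.62% higher in HPB-ALL and 8.40% higher in KOPTK1). The median absolute log2 difference was 0.27 over the 9 members and 0.33 over all tested genes.

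**Figure D2:**
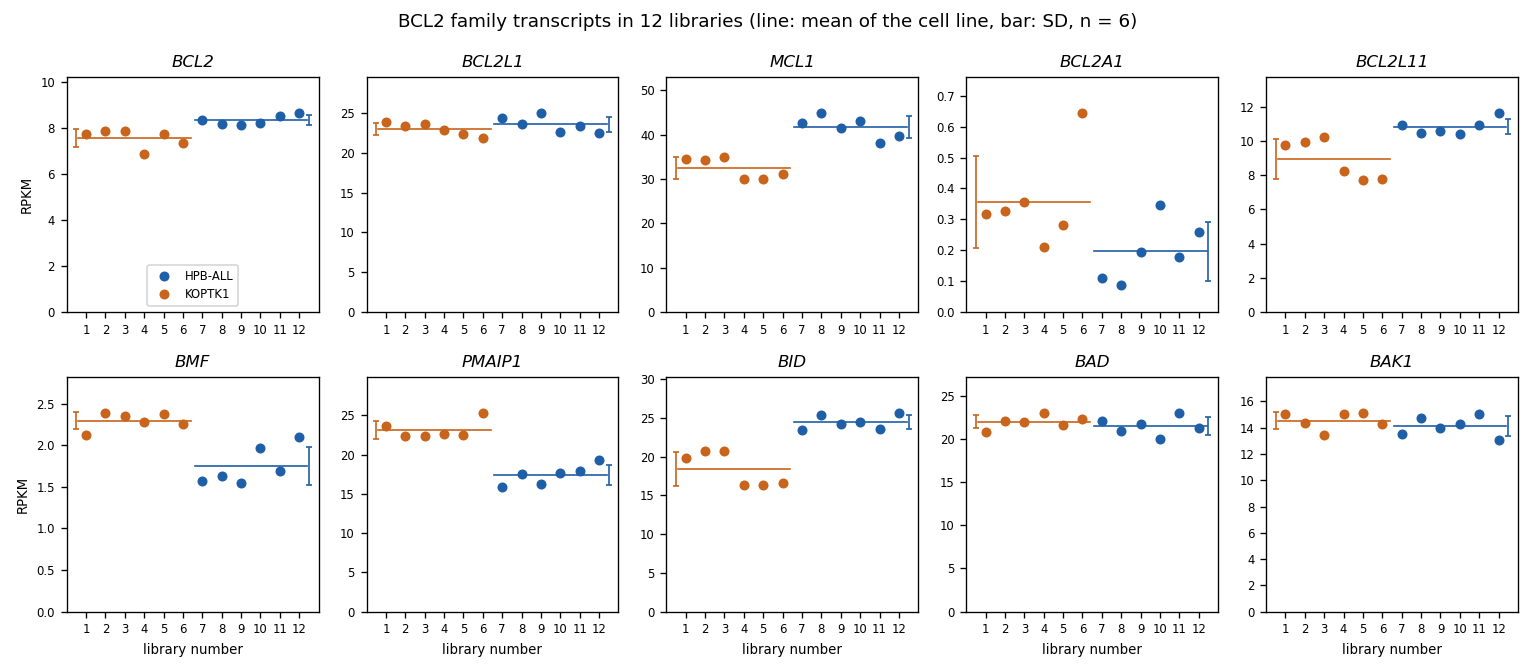
Level in RPKM (vertical axis, from 0) of each of the 10 members in each library (horizontal axis, library number), KOPTK1 in orange and HPB-ALL in blue, with lines at each line's mean and bars of 1 SD (n = 6). The 2 lines do not overlap for BCL2, MCL1, BCL2L11, BMF, PMAIP1 and BID and overlap for the other 4 members.

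MCL1, a short-lived protein that restrains BAK1 and binds NOXA, had the highest level of the 10 members in RPKM in both lines. Its level was 38.1 to 44.9 RPKM in HPB-ALL, with a median of 42.1, and 30.0 to 34.95 RPKM in KOPTK1, with a median of 32.7. Every HPB-ALL library lay above every KOPTK1 library, and within KOPTK1 libraries 1 to 3 (34.4 to 34.95 RPKM) lay above libraries 4 to 6 (30.0 to 31.1 RPKM). The mean level was 41.6 ± 2.47 RPKM (SD, n = 6) in HPB-ALL and 32.5 ± 2.39 RPKM (SD, n = 6) in KOPTK1. The fitted log2 difference in level, HPB-ALL minus KOPTK1, was 0.36 (SE 0.05), or 1.28-fold, with an edgeR adjusted p of 4.6e-05. It was 0.49 without libraries 1 to 3 and 0.27 without libraries 4 to 6.

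BCL2, the founding anti-apoptotic member, had the lowest level of the 3 anti-apoptotic members that were tested. It lay at 8.14 to 8.66 RPKM in HPB-ALL (median 8.28) and at 6.89 to 7.89 RPKM in KOPTK1 (median 7.74). The lines came close without overlapping, and all 6 HPB-ALL libraries were above the KOPTK1 median. The log2 difference of 0.14 (SE 0.04), or 1.10-fold, had an edgeR adjusted p of 0.0041. Without libraries 1 to 3 the log2 difference was 0.22, and without libraries 4 to 6 it was 0.10, past the threshold in both fits.

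BCL2L1, whose main product BCL-XL guards BAX and BAK1, was not called with all 12 libraries. HPB-ALL libraries ran from 22.5 to 25.0 RPKM (median 23.5) and KOPTK1 libraries from 21.8 to 23.9 RPKM (median 23.1), with overlap. The log2 difference was 0.04, with a 95% confidence interval from -0.04 to 0.11 and an edgeR adjusted p of 0.374. Without libraries 1 to 3 it was 0.11 and passed the threshold, with an adjusted p of 0.022 in a range of 0.022 to 0.93 over the alternatives. On the files' build, GRCh38, 42.8% of the exon bases of BCL2L1 (chr20:31664452-31722898) also belong to ABALON on the opposite strand, and the strand setting of the counting is not stated, so reads of the 2 genes cannot be told apart there.

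BCL2A1, an NF-κB-driven anti-apoptotic member of activated lymphocytes, was barely detected. It had between 4 and 16 reads in any library, at 0.0874 to 0.347 RPKM in HPB-ALL and 0.212 to 0.644 RPKM in KOPTK1. The lines overlapped and no line reached the mean of 1 RPKM set for testing. With the filter left off, its log2 difference was -0.78 with a 95% confidence interval from -1.56 to 0.0024 and an edgeR adjusted p of 0.106.

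Within a library the RPKM levels of the 4 anti-apoptotic genes summed to 70.1 to 76.8 RPKM in HPB-ALL and to 59.9 to 66.8 RPKM in KOPTK1. MCL1 took 54.3% to 58.5% of that sum in HPB-ALL and 49.7% to 52.4% in KOPTK1. The ratio of MCL1 to BCL2 in RPKM was 4.46 to 5.50 in HPB-ALL and 3.88 to 4.47 in KOPTK1. The ranges of the lines did not overlap for the sum or for the MCL1 share and overlapped slightly for the ratio, and no test was made on these combined values. The 5 BH3-only genes summed to 73.9 to 80.0 RPKM in HPB-ALL and to 70.6 to 77.7 RPKM in KOPTK1, which overlapped.

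Of the 5 BH3-only members, 4 differed between the lines, beside 65.4% of all tested genes, and they divided evenly by direction. BID, which caspase-8 cleaves to carry a death receptor signal to the mitochondria, was at 23.4 to 25.7 RPKM in HPB-ALL (median 24.3) and at 16.3 to 20.7 RPKM in KOPTK1 (median 18.2). All HPB-ALL libraries were above all KOPTK1 libraries, and libraries 1 to 3 (19.8 to 20.7 RPKM) were above libraries 4 to 6 (16.3 to 16.5 RPKM). The log2 difference of 0.41 (SE 0.07), or 1.33-fold, had an edgeR adjusted p of 0.00013. It was 0.61 without libraries 1 to 3 and 0.27 without libraries 4 to 6.

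BCL2L11 encodes BIM, which binds every anti-apoptotic member of the family and is known for removing self-reactive thymocytes. Its level was 10.4 to 11.6 RPKM in HPB-ALL (median 10.8) and 7.70 to 10.3 RPKM in KOPTK1 (median 9.04). The lines did not overlap, but libraries 1 to 3 (9.79 to 10.3 RPKM) came close to HPB-ALL and libraries 4 to 6 (7.70 to 8.28 RPKM) did not. The log2 difference was 0.27 (SE 0.07), or 1.21-fold, with an edgeR adjusted p of 0.0043. This value rested more than any other called member's on the choice of KOPTK1 libraries, being 0.49 without libraries 1 to 3 and 0.12 without libraries 4 to 6, with adjusted p of 8.4e-09 and 0.016.

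PMAIP1, the gene of NOXA, showed the opposite direction. It was at 15.9 to 19.4 RPKM in HPB-ALL (median 17.6) and at 22.3 to 25.3 RPKM in KOPTK1 (median 22.6). Every KOPTK1 library was above every HPB-ALL library, and libraries 1 to 3 and 4 to 6 overlapped. The log2 difference of -0.41 (SE 0.05), or 1.33-fold higher in KOPTK1, had an edgeR adjusted p of 1.5e-05. It was -0.40 without libraries 1 to 3 and -0.38 without libraries 4 to 6. The ratio of MCL1 to PMAIP1 in RPKM was 2.05 to 2.69 in HPB-ALL and 1.23 to 1.56 in KOPTK1.

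BMF, a BH3-only gene known for responding to loss of attachment and other stress, had the lowest level of the tested members. It lay at 1.54 to 2.10 RPKM in HPB-ALL (median 1.66) and at 2.12 to 2.39 RPKM in KOPTK1 (median 2.31), on 253 to 438 reads per library. The highest HPB-ALL library came just under the lowest KOPTK1 library. The log2 difference was -0.39 (SE 0.08), or 1.31-fold higher in KOPTK1, with an edgeR adjusted p of 0.00085. It was -0.36 without libraries 1 to 3 and -0.38 without libraries 4 to 6. BMF shares 9.38% of its exon bases with BMF-AS1 on the opposite strand.

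BAD, whose product is held inactive by phosphorylation downstream of growth factor signalling, was not called. Its level was 19.97 to 23.0 RPKM in HPB-ALL (median 21.5) and 20.8 to 23.0 RPKM in KOPTK1 (median 22.05), and the lines overlapped over most of their range. The log2 difference was -0.03, with a 95% confidence interval from -0.12 to 0.06 and an edgeR adjusted p of 0.555. It was -0.02 without libraries 1 to 3 and -0.00044 without libraries 4 to 6, not called in either fit.

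BAK1, the effector that sits in the outer mitochondrial membrane, was not called either. It was at 13.1 to 15.0 RPKM in HPB-ALL (median 14.2) and at 13.4 to 15.1 RPKM in KOPTK1 (median 14.7). The lines overlapped, and the log2 difference was -0.04, with a 95% confidence interval from -0.14 to 0.06 and an edgeR adjusted p of 0.427. It was -0.04 without libraries 1 to 3 and -0.0099 without libraries 4 to 6, again not called.

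**Figure D3:**
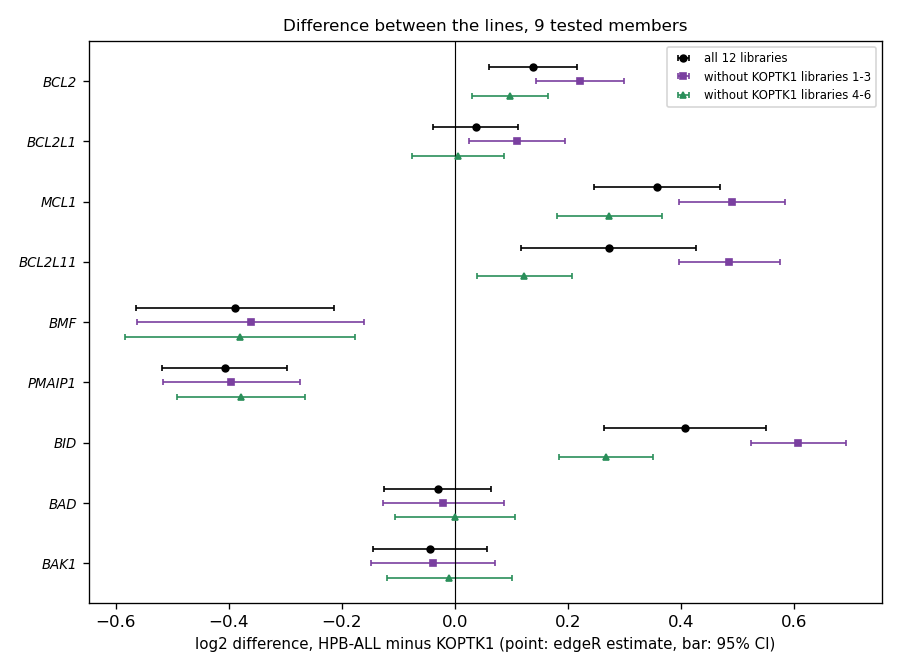
Log2 difference in level between the lines (horizontal axis, HPB-ALL minus KOPTK1, points with 95% confidence intervals from edgeR) for the 9 tested members (vertical axis), with all 12 libraries and without either set of 3 KOPTK1 libraries. MCL1, BCL2L11 and BID move with the KOPTK1 libraries used, whereas PMAIP1 and BMF stay between -0.41 and -0.36 in these fits. Without HPB-ALL library 12, a fit not drawn here, PMAIP1 was at -0.44 and BMF at -0.45.

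The 6 members whose test was passed were also the 6 whose libraries did not overlap between the lines, where 45.3% of all tested genes did not overlap. Without libraries 1 to 3, 7 of 9 members were called (the same 6 and BCL2L1) against 70.1% of all genes tested, and without libraries 4 to 6 the same 6 were called against 53.5%. Ranked by the absolute log2 difference among all tested genes, PMAIP1 stood at the 58.3 percentile and BID at the same place, BMF at 56.5 and MCL1 at 53.0. BCL2L11 stood at 42.8, BCL2 at 23.1, and BAK1, BCL2L1 and BAD below 8. The members' differences therefore sat in the middle or lower part of the distribution of all genes.

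**Figure D4:**
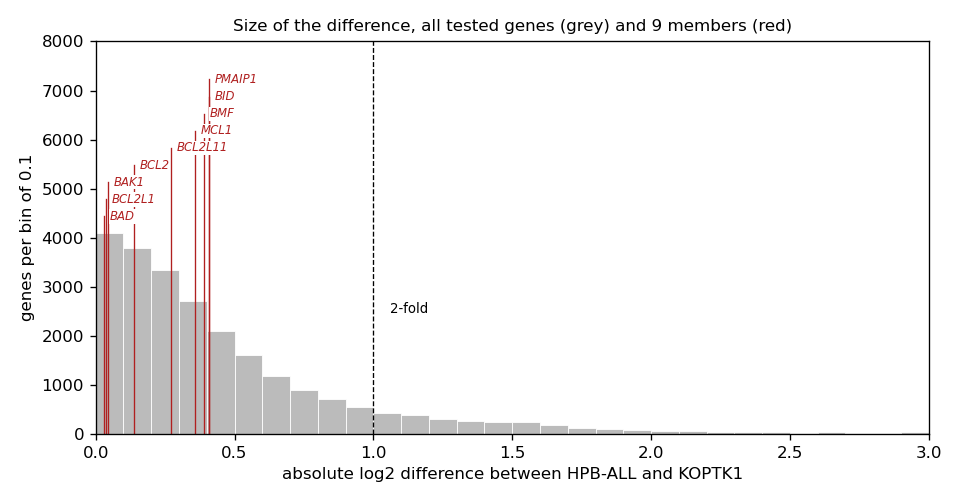
Number of tested genes (vertical axis) by absolute log2 difference between the lines (horizontal axis, bins of 0.1, drawn up to 3) in grey, with the 9 tested members as red lines and 2-fold as a dashed line. All members fall at or below 0.41.

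The order of the members by RPKM level was similar in the lines at its ends and differed in the middle. In HPB-ALL it ran from MCL1 through BID, BCL2L1, BAD, PMAIP1, BAK1, BCL2L11, BCL2 and BMF to BCL2A1. In KOPTK1 it ran from MCL1 through BCL2L1, PMAIP1, BAD, BID, BAK1, BCL2L11, BCL2 and BMF to BCL2A1. Neighbours whose ranges over libraries overlapped were BID with BCL2L1 and BCL2L1 with BAD in HPB-ALL, and BCL2L1 with PMAIP1, PMAIP1 with BAD, and BCL2L11 with BCL2 in KOPTK1. These neighbours do not differ beyond their spread, and the other neighbours had separate ranges.

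Spread over the 6 libraries of a line differed between members. In HPB-ALL the coefficient of variation of the level was between 2.57% for BCL2 and 7.20% for PMAIP1, apart from BMF at 13.01% and BCL2A1 at 48.9%. In KOPTK1 it was largest, after BCL2A1 at 41.8%, for BCL2L11 at 13.03% and BID at 12.01%. Libraries 1 to 3 and 4 to 6 did not overlap for BCL2L1, MCL1, BCL2L11 and BID, and in each of these libraries 1 to 3 were higher. The other 6 members overlapped between these sets. TAL1 and CD79A were apart between them as well, and so were most of the 38 other apoptosis genes, BAX among them. The share of all tested genes without overlap was not computed. No trait particular to the family is read from this separation.

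The other 38 apoptosis genes examined cover further family members, the mitochondrial pathway, caspase inhibitors, death receptors and regulators of the family's turnover. Of these, 33 were tested and 29 differed between the lines, 18 higher in HPB-ALL and 11 higher in KOPTK1. Over all tested genes 65.4% were called, 31.3% higher in HPB-ALL and 34.1% higher in KOPTK1. The median log2 difference of the 33 was 0.14, against -0.03 over all tested genes, and their median absolute log2 difference of 0.33 equalled that of all genes at this rounding. BCL2L10, HRK, BCL2L14, FASLG and TNFRSF10A were below the filter.

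With all 12 libraries BAX and BBC3 were the only ones of the 33 to be called with at least 2-fold difference, and both were higher in KOPTK1. Without libraries 1 to 3 BCL2L2, CASP9, BCL2L15 and BIK also passed 2-fold, all higher in HPB-ALL, with log2 differences of 1.10, 1.04, 1.04 and 1.02. Without libraries 4 to 6 BBC3 alone did. BAX, the effector that works beside BAK1, was at 27.4 to 29.3 RPKM in HPB-ALL and at 47.0 to 68.9 RPKM in KOPTK1, with a log2 difference of -1.03 (SE 0.09). BBC3, which encodes the BH3-only protein PUMA, was at 2.42 to 3.30 RPKM in HPB-ALL and at 6.14 to 10.7 RPKM in KOPTK1, with a log2 difference of -1.58 (SE 0.13).

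For both genes the lines did not overlap, and libraries 4 to 6 were higher than libraries 1 to 3. The ratio of BAX to BAK1 in RPKM was 1.86 to 2.24 in HPB-ALL and 3.30 to 4.71 in KOPTK1. Without libraries 4 to 6 the log2 difference of BAX was -0.77, below 2-fold, while BBC3 was at -1.29. Without libraries 1 to 3 the values were -1.21 for BAX and -1.79 for BBC3.

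The counts by role are small and stand beside the same 65.4% of all tested genes called, 31.3% higher in HPB-ALL and 34.1% higher in KOPTK1. Of 9 tested family genes outside the 10 members 7 were called, 5 higher in HPB-ALL and 2 higher in KOPTK1. BCL2L2, which encodes the anti-apoptotic BCL-W, and BOK, an effector relative, were both higher in HPB-ALL by 0.86 on the log2 scale but at or below 1.497 RPKM. Their log2 differences were 1.10 and 0.95 without libraries 1 to 3 and 0.70 and 0.82 without libraries 4 to 6. Among genes of the mitochondrial pathway, 6 of 8 were higher in HPB-ALL and 2 higher in KOPTK1. CASP9, the initiator caspase of the apoptosome, was higher in HPB-ALL by 0.73 on the log2 scale (1.04 without libraries 1 to 3 and 0.51 without libraries 4 to 6). BCL2L2, BOK, CASP9 and the genes named in the next paragraph were chosen as examples after their values were seen.

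All 4 caspase inhibitors were called, 3 higher in HPB-ALL, where 65.4% of all tested genes were called. XIAP, which blocks caspases directly, was higher there by 0.16 on the log2 scale (0.20 without libraries 1 to 3 and 0.15 without libraries 4 to 6). Of the 7 tested death receptor genes, 3 were higher in HPB-ALL and 3 higher in KOPTK1. CFLAR, which restrains caspase-8 at the receptor, was higher in HPB-ALL by 0.64 on the log2 scale, at 0.96 without libraries 1 to 3 and 0.41 without libraries 4 to 6. The receptor gene TNFRSF10B was higher in KOPTK1, with a log2 difference of -0.33 (-0.37 without libraries 1 to 3 and -0.25 without libraries 4 to 6). Of the 5 turnover and control genes, 3 were higher in KOPTK1 and 1 in HPB-ALL. HUWE1, a ubiquitin ligase for MCL1, was higher in HPB-ALL by 0.39 on the log2 scale, at 0.58 without libraries 1 to 3 and 0.26 without libraries 4 to 6. FBXW7, another ligase for MCL1 that is often mutated in T-ALL, was higher in KOPTK1 with a log2 difference of -0.61 (-0.68 without libraries 1 to 3 and -0.49 without libraries 4 to 6).

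The 4 tested genes that did not pass were BNIP3L, BCL2L15, RIPK1 and BTRC. Without libraries 1 to 3, 29 of 33 were again called beside 70.1% of all genes tested in that fit, with BCL2L15 gained and USP9X lost. Without libraries 4 to 6, 24 of 33 were called beside 53.5% of all genes tested, with APAF1, BIRC2, BIRC5, FAS and USP9X lost.

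**Figure D5:**
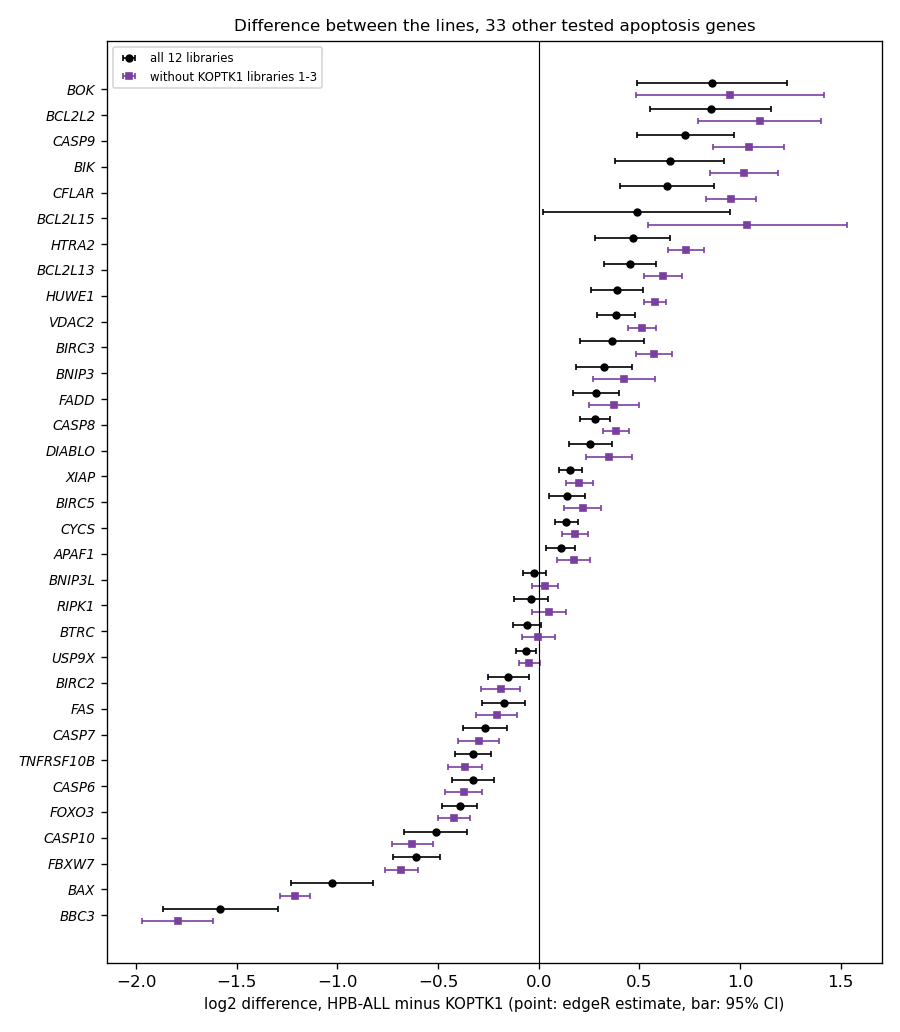
Log2 difference in level between the lines (horizontal axis, HPB-ALL minus KOPTK1, points with 95% confidence intervals from edgeR) for the 33 tested genes of the wider apoptosis list (vertical axis, ordered by the difference), with all 12 libraries in black and without KOPTK1 libraries 1 to 3 in purple. BAX and BBC3 lie below -1 in both fits drawn. Without KOPTK1 libraries 4 to 6, a fit not drawn, BAX was at -0.77 and BBC3 at -1.29.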

How the data were processed

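RNA-seq was made from 12 libraries of 2 T-ALL lines. Per the labels, reads were trimmed with Trimmomatic 0.36, aligned with STAR 2.5.4b to hg38, and counted per gene with featureCounts 1.6.2. Picard 2.18.7 and edgeR 3.22.3 are also named in the submitters' processing notes, and the strand setting is not given in the sources used here. The deposited per-library values are estimated counts. Over all 58288 genes, those without reads included, 83.8% are whole numbers within rounding and the rest are fractions. The origin of the fractions was not tested. The tables' columns of log fold change, mean abundance, F, p-value and FDR hold the authors' own comparisons and were not used. No per-sample column was left unused. Of the gene identifiers, 95.8% matched a symbol.

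Counts were rounded and fitted with edgeR 4.0.16 (quasi-likelihood test, TMM scaling, R 4.3.3), with the line as the only term, for genes with a mean of at least 1 RPKM in a line. RPKM was computed from the deposited counts, the deposited exon lengths and the TMM-scaled library sizes. p-values were adjusted over all genes tested and called under 0.05. The procedure was tested on simulated data. Columns could be assigned to a line but not to an shRNA group, so the knockdown was not tested. Any pair of libraries of a line differed by more than sampling noise (chi-square per degree of freedom at least 1.76), so all 12 were counted. This does not show that they came from separate cultures. In KOPTK1 the chi-square was 1.76 to 4.86 within libraries 1 to 3 or 4 to 6. Between these sets it was 20.75 to 24.82, and the SDs and p-values for KOPTK1 include that gap. In HPB-ALL the chi-square was 2.10 to 3.88 within libraries 7 to 9 or 10 to 12 and 4.13 to 6.13 between them. The SDs and p-values for HPB-ALL include this smaller gap, and no fit left out either HPB-ALL set. With 22884785 to 42842791 counted reads per library, the tested members had 253 to 7707 reads each.

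The members and gene lists were chosen with earlier results of these data known. All 10 members are named, with those other apoptosis genes past the threshold and 2-fold, those below the filter, SHQ1 and the markers. Part of the wider apoptosis list is not reported here. Alternatives were library totals without TMM, protein-coding totals, median-ratio scaling, DESeq2 1.42.0, other filters, a 2-fold minimum and leaving out each library. Leaving out KOPTK1 libraries 1 to 3 or 4 to 6 was added after seeing the data. BH3 bases came from GENCODE v44 transcripts on GRCh37, and gene positions are those of the tables.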

Additional observations from a re-analysis of the deposited data

Results flagged for a closer look

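BCL2A1 in KOPTK1 library 6 was at 0.644 RPKM, on at most 16 reads, while the other 5 KOPTK1 libraries were at 0.212 to 0.358 RPKM. The gap to the nearest library was 0.663 of the line's range, above Dixon's critical value of 0.625 for 6 samples. Chance marks about 1 in 20 such groups, and this was 1 of 22 groups examined (10 members and SHQ1 in 2 lines). The gene was not tested between the lines at this level.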

How the results depend on the processing

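No paired analysis was possible because the columns carry neither a replicate number nor an shRNA group, and for the same reason the planned knockdown fits and the replicate block were not run. The pseudocount alternative was not run because the values were counts. With a minimum of 2-fold, 0 of 9 members, 2 of the 33 other apoptosis genes and 3156 of all 24246 genes were called. With a mean of at least 10 RPKM, 4 of 7 members and 20 of 21 other apoptosis genes were called, beside 7196 of 9293 genes. BCL2 and BMF were not tested there. With no filter, the log2 difference of BAD became 0.041 and that of BAK1 became 0.027, neither of them called, and BCL2L1 was called at 0.11 (edgeR adjusted p 0.037). BCL2L1 was also called, at 0.11, without KOPTK1 libraries 1 to 3. The cause was not tested. Leaving out each library in turn gave 6 of 9 members in every fit and 27 to 29 of 32 or 33 other apoptosis genes. Of the 24171 to 24313 genes tested in these fits, 15004 to 16185 were called. DESeq2, library totals, protein-coding totals and median-ratio scaling each called 6 of 9 members. Of all 24246 genes they called 15782, 15850, 15872 and 15865, in that order. BCL2A1, with at most 16 reads in a library, was below the filter on RPKM and was tested only with the filter left off.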

Other observations

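SHQ1, the gene that the shRNA targets, is given per library because the columns carry no shRNA group. In KOPTK1 its level was 45.9, 44.5 and 46.6 RPKM in libraries 1, 2 and 3 and 41.8, 41.7 and 39.4 RPKM in libraries 4, 5 and 6. In HPB-ALL it was 70.9, 71.9 and 70.9 RPKM in libraries 7, 8 and 9 and 47.2, 45.9 and 48.6 RPKM in libraries 10, 11 and 12. The HPB-ALL values fell into separate clusters, and the members' levels were not compared between them.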
